A study of Mus musculus with 15 samples.

Results

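The genes of prostaglandin and leukotriene synthesis and signalling described here are 10 of the 51763 genes in the deposited count table: the cyclooxygenases *Ptgs1* and *Ptgs2*, the synthases *Ptges*, *Hpgds* and *Tbxas1*, the prostaglandin E2 (PGE2) receptors *Ptger2* and *Ptger4*, and the leukotriene genes *Alox5*, *Alox5ap* and *Ltc4s*. They were chosen by name for their place in the pathway, with earlier results of these data known. All 10 were among the 16919 genes with enough counts to be tested. The counts came from bone marrow-derived macrophages (BMDMs), which were grown with M-CSF from wild-type female C57BL/6NTac mice aged 8 to 10 weeks. Cells of 5 mice were pooled before seeding and stimulated for 24 h. There were 5 groups of 3 libraries. Control cells received PBS. HMGB1 was given at 5 µg/mL, either fully reduced (frHMGB1) or in its disulfide form (dsHMGB1), LPS was given at 1 µg/mL, and in the LPS/IFNγ group IFNγ was added at 20 ng/mL. In that group the dose of LPS stands as 1 µg/mL in the treatment field of the labels and as 100 ng/mL in their protocol text and in the study's methods. Because 1 pool of cells fed every group, replicates were technical, and each error and adjusted p reported here covers the spread between libraries and not between mice.

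HMGB1 is a nuclear DNA-binding protein that acts as an alarm signal once outside the cell. Its disulfide form, in which a pair of cysteines is bonded, is a ligand of TLR4, the receptor that also senses LPS. Eicosanoids are lipid mediators made from arachidonic acid, which phospholipases release from membranes. Cyclooxygenases turn arachidonic acid into prostaglandin H2, and terminal synthases then make PGE2, prostaglandin D2 or thromboxane A2 from it. In a separate branch, 5-lipoxygenase with its activating protein makes leukotriene A4, from which leukotriene B4 and leukotriene C4 arise. In macrophages PGE2 acts through the receptors EP2 and EP4, both of which raise cyclic AMP.

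Among the 10 genes, *Ptgs2*, *Ptges* and *Ptger4* rose and *Ptgs1*, *Ptger2*, *Alox5ap*, *Hpgds* and *Tbxas1* fell, in dsHMGB1, LPS and LPS/IFNγ, each compared with PBS. The widest change was in *Ptgs2*, with means of 74.1 ± 34.0 normalized counts in PBS, 59673 ± 8692 in dsHMGB1, 290884 ± 15086 in LPS and, for LPS/IFNγ, 165128 ± 5764 (± SD over 3 libraries throughout). LPS/IFNγ stood apart in *Ptges*, at 542 ± 21.8 against 2419 ± 249 in dsHMGB1 and 2413 ± 205 in LPS, and in *Ptger4*, at 11763.5 ± 293 against 2019.9 ± 103 and 3361 ± 209. In frHMGB1, 1 of the 10 genes passed the test, where 7.00% of all tested genes did. A normalized count is the read count divided by the size factor of the library (DESeq2), and a gene passed the test, or was called, when its p in edgeR's quasi-likelihood test, adjusted over all 16919 genes, was under 0.05.

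The stretches before the start sites of 4 of these genes are shown because *Ptgs2* and *Ptges* rose while *Ptgs1* and *Hpgds* fell. Each is the 250 bases upstream of the RefSeq start on GRCm38.p6, read 5′ to 3′ on the strand of the gene. They lie at chr2:36230176-36230425 (+ strand, *Ptgs1*), chr1:150099781-150100030 (+ strand, *Ptgs2*), chr2:30903298-30903547 (− strand, *Ptges*) and chr6:65144731-65144980 (− strand, *Hpgds*). Distances are counted from the RefSeq start, which can differ from the end of the GENCODE gene positions given below. By those positions, the *Ptges* window lies within the gene, which extends to 30929863. The *Hpgds* window overlaps the gene, which extends to 65144908. Capitals mark matches, on either strand, to the C/EBP letters TTNCNNAA or the PU.1 letters GAGGAA.
Ptgs1: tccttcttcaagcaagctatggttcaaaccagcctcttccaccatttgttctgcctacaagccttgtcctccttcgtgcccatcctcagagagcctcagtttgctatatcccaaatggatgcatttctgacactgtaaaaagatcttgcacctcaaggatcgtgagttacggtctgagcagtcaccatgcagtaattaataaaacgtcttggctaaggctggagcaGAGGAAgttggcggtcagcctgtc
Ptgs2: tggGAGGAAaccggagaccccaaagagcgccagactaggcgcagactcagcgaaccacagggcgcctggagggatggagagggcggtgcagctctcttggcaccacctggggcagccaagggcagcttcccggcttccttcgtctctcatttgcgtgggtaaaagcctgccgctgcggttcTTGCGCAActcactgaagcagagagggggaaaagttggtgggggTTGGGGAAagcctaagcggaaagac
Ptges: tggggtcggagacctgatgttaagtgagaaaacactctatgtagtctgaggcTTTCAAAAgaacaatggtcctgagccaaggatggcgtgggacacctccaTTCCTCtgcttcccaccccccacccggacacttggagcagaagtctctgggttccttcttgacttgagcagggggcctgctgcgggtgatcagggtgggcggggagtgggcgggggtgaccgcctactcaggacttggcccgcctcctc
Hpgds: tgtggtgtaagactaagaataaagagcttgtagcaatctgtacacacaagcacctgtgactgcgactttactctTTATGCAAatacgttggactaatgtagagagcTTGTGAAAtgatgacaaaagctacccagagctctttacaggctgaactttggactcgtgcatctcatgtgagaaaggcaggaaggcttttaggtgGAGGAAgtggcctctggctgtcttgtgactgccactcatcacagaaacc

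C/EBP and PU.1 are DNA-binding factors of myeloid cells. In *Ptgs2*, a C/EBP match that reads the same on both strands lay 69 to 62 bases before the start, a further one on the opposite strand lay 25 to 18 bases before it, and a PU.1 match lay 247 to 242 bases before it. *Ptges* had a C/EBP match 198 to 191 bases and a PU.1 match 149 to 144 bases upstream, and *Hpgds* had C/EBP matches at 176 to 169 and 144 to 137 bases and a PU.1 match at 49 to 44 bases. *Ptgs1* had a PU.1 match 24 to 19 bases upstream and none to the C/EBP letters. Over the 32851 promoters of the same length in the RefSeq table, 36.85% held the C/EBP letters and 23.25% the PU.1 letters. Also searched on both strands were the kappaB letters (GGG, any 2 bases, TTTCC, in 1.41% of all promoters), the CRE core TGACG (17.77%), the AP-1 letters TGANTCA (6.75%), the GAS letters TTCNNNGAA (7.02%), the ISRE letters (GAAA, any 2 bases, GAAA, 2.98%), the E-box CACGTG (6.02%) and the TATA letters TATAAA (12.37%). None of these 7 was present in the windows of the 4 genes shown. Windows of 9 of the 10 genes were searched, and the 4 shown were picked by their direction of change. Of the others, *Ptger4*, which also rose, and *Ltc4s* held no match to any of the letters. *Ptger2* held C/EBP matches, *Alox5* a PU.1 match, and *Tbxas1* PU.1, AP-1 and TATA matches. *Alox5ap* had no window. Bases farther upstream and bases downstream of the RefSeq start were not searched. Absence from a window therefore does not show that the gene lacks such a site. Such matches describe letters only, and no binding was measured in these samples.

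The libraries held 40934540 to 80925478 counts. PBS replicate 3 stood apart: in log2 CPM, counts relative to the library total, it correlated with PBS replicates 1 and 2 at r = 0.938 and 0.933, against 0.987 to 0.993 for every other replicate pair, so the results that rest on it are also given without it. Over all tested genes, the median log2 fold change against PBS was −0.01 for frHMGB1, −0.10 for dsHMGB1, −0.21 for LPS and −0.13 for LPS/IFNγ. Over the protein-coding genes among them, it was 0.03, −0.09, −0.06 and −0.12. Small falls have to be read against these values. All 8 macrophage markers were tested, and their summed level was 21654 to 26103 CPM in PBS, 26896 to 27174 in frHMGB1, 18517 to 19738 with dsHMGB1, 14983 to 15600 with LPS and 13313 to 13612 with LPS/IFNγ. *Lyz2* made up 76.2% of the sum in PBS, and the markers did not move together: the means of *Adgre1*, *Mertk* and *Fcgr1* were above PBS in dsHMGB1, LPS and LPS/IFNγ, and that of *Mrc1* in LPS/IFNγ, while the other means were below. Mast cells and basophils, eosinophils and platelets also make prostanoids or leukotrienes. The mast cell and basophil list of 7 genes summed to at most 8.25 CPM, with *Tpsb2*, *Fcer1a*, *Ms4a2* and *Mcpt4* at 0 counts, the 4 eosinophil genes to 8.13 to 16.4 CPM with *Epx* at 0, and the 5 platelet genes to at most 10.9 CPM with *Gp1bb* at 0. The 6 neutrophil genes summed to at most 5.47 CPM, with *S100a9*, *Ly6g* and *Mpo* at 0, and the 4 genes of T, B and NK cells to at most 0.122 CPM. The 5 fibroblast genes summed to 120 to 284 CPM, with both ends of the range in PBS. The 4 dendritic cell genes summed to 1.61 to 2.77 CPM in PBS, 0.959 to 1.29 in frHMGB1, 3.09 to 4.08 in dsHMGB1, 7.69 to 8.44 in LPS and 13.01 to 14.2 in LPS/IFNγ, and the part of these cells in the results was not tested. In bulk samples, fewer cells of a type and less RNA per cell cannot be told apart.

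Cyclooxygenases make the first prostaglandin of the pathway. *Ptgs2* (ENSMUSG00000032487, chromosome 1 of GRCm38 from 150100031 to 150108227) encodes the inducible enzyme COX-2. Its normalized counts were 102, 83.9 and 36.4 in the PBS libraries and 90.9, 109 and 62.5 in frHMGB1. They were 54406, 69705 and 54909 in dsHMGB1, 274057, 303198 and 295397 in LPS, and 159183, 170692 and 165509 in LPS/IFNγ. The frHMGB1 libraries overlapped the PBS libraries, whereas the other 3 groups were separate from PBS and from each other. *Ptgs2* rose 789-fold in dsHMGB1 (log2 fold change 9.62, SE 0.27, adjusted p = 1.97e-10), 3845-fold in LPS (11.91, SE 0.27, adjusted p = 2.98e-11) and 2183-fold in LPS/IFNγ (11.09, SE 0.27, adjusted p = 4.08e-11). In frHMGB1 the log2 fold change was 0.21, with a 95% interval of −0.34 to 0.76 (adjusted p = 0.779). Without PBS replicate 3, the lowest in *Ptgs2*, edgeR's log2 fold changes were 9.29, 11.55 and 10.72 for the same 3 stimulations. Ordered by count among the 16919 tested genes, *Ptgs2* moved from a median rank of 11022 in PBS to 121 in dsHMGB1, 49 in LPS/IFNγ and 25 in LPS.

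Between the stimulated groups, *Ptgs2* was 4.87-fold lower in dsHMGB1 than in LPS (log2 fold change −2.29, SE 0.25, adjusted p = 5.1e-05) and 2.77-fold lower than in LPS/IFNγ (−1.47, SE 0.25, adjusted p = 0.000792). In LPS/IFNγ it was 1.76-fold lower than in LPS (−0.82, SE 0.25, adjusted p = 0.0423). That last call was close to the threshold and was lost when any single LPS or LPS/IFNγ library was left out, and also without frHMGB1 replicate 1 or dsHMGB1 replicate 2 or 3, although the 6 libraries compared did not overlap. By the protocol text and the methods, the LPS dose also differed in this comparison.

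*Ptgs1* (ENSMUSG00000047250, chromosome 2 from 36230426 to 36252272) encodes COX-1, the constitutive cyclooxygenase. It had 541, 520.4 and 493 normalized counts in PBS and 637, 588 and 613 in frHMGB1. The counts were 271, 293 and 256 in dsHMGB1, 200.3, 302 and 204 in LPS, and 309.5, 361 and 319.8 in LPS/IFNγ. Every library of the 3 latter groups was below every PBS library. *Ptgs1* fell 1.90-fold in dsHMGB1 (log2 fold change −0.92, SE 0.15, adjusted p = 0.000224), 2.21-fold in LPS (−1.14, SE 0.15, adjusted p = 1.72e-05) and 1.57-fold in LPS/IFNγ (−0.65, SE 0.15, adjusted p = 0.00176). The change in frHMGB1, 0.24 on the log2 scale (SE 0.14), did not pass the test (adjusted p = 0.447), although the frHMGB1 libraries were all above the PBS libraries. *Ptgs1* was higher in LPS/IFNγ than in LPS (0.49, SE 0.16, adjusted p = 0.0246), a call that was lost with no filter on low counts, without LPS replicate 1 or 3 and without any of the LPS/IFNγ replicates. The difference between dsHMGB1 and LPS was 0.22, with a 95% interval of −0.09 to 0.52 (adjusted p = 0.245), and was called without LPS replicate 2.

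The balance of the cyclooxygenases was expressed as a ratio of levels per kilobase of exon. *Ptgs2* made up 5.89% to 13.8% of the summed cyclooxygenase level in the PBS libraries and 99.4% to 99.5% in dsHMGB1. For 1 unit of *Ptgs1* per kilobase there were 0.0626 to 0.160 units of *Ptgs2* in PBS, 0.0866 to 0.158 in frHMGB1, 170 to 202 in dsHMGB1, 401 to 439 in LPS/IFNγ and 852 to 1226 in LPS. The ranges of dsHMGB1, LPS and LPS/IFNγ did not overlap each other or those of PBS and frHMGB1.

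**Figure D1:**
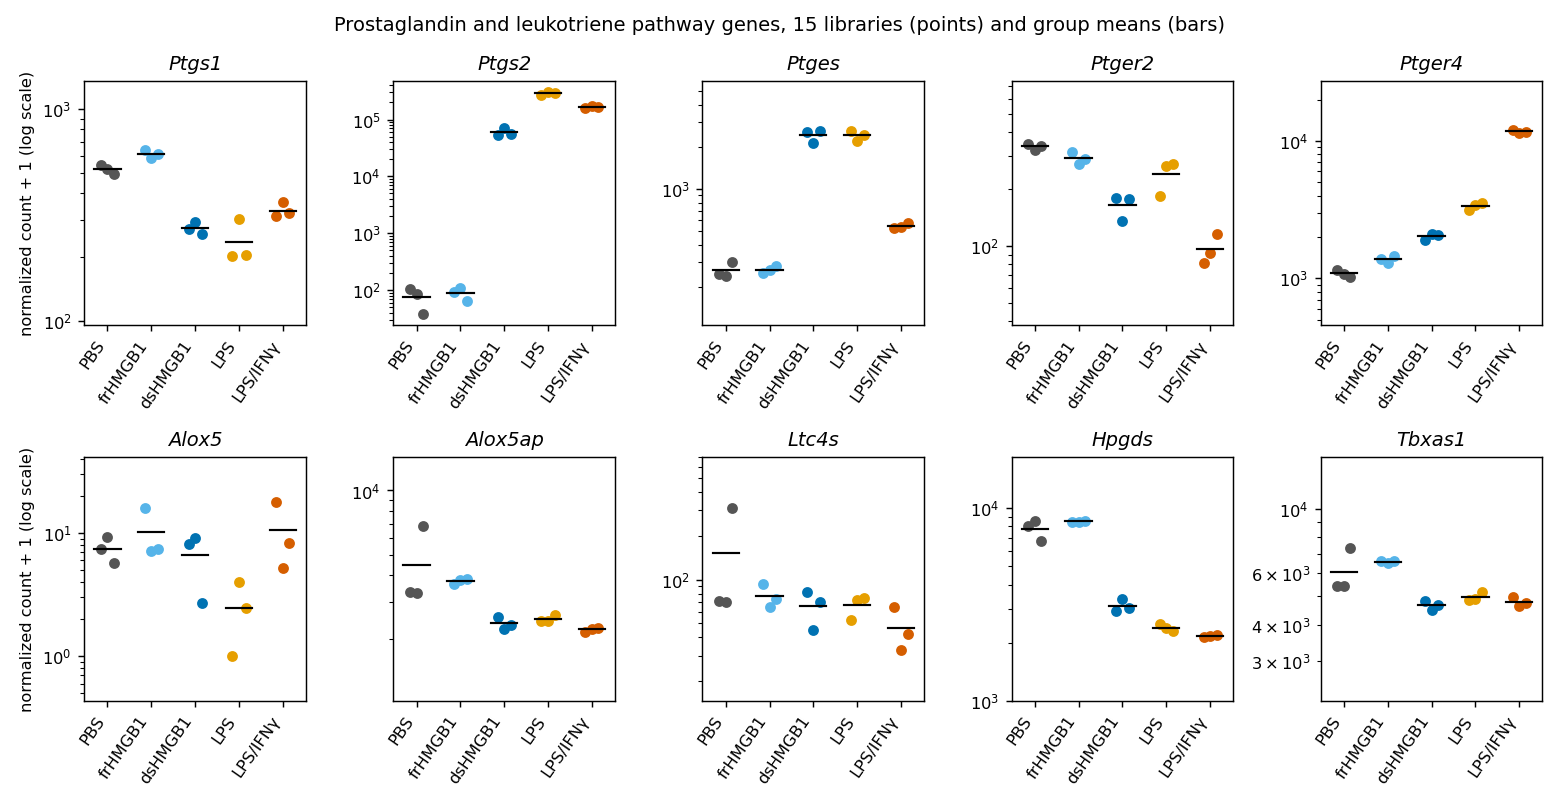
Normalized counts plus 1 (log scale) of the 10 genes in each of the 15 libraries (points), by stimulation, with group means as bars and 3 libraries per group. *Ptgs2* moved from 36.4 to 102 in PBS up to 303198 in LPS, *Hpgds* fell in dsHMGB1, LPS and LPS/IFNγ, and PBS replicate 3 was high in *Alox5ap* and *Ltc4s*.

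Of the terminal synthases chosen, the PGE2 synthase *Ptges* rose, and *Hpgds* for prostaglandin D2 and *Tbxas1* for thromboxane fell. *Ptges* (ENSMUSG00000050737, chromosome 2 from 30889471 to 30929863) encodes microsomal prostaglandin E synthase-1, which acts downstream of COX-2. Its normalized counts were 246, 238 and 300.3 in PBS, 249, 264 and 279 in frHMGB1, and 524.7, 534 and 566 in LPS/IFNγ. For dsHMGB1 they were 2551, 2132 and 2574, and in LPS 2610.4, 2201 and 2427. The dsHMGB1 and LPS libraries overlapped each other and lay above all LPS/IFNγ libraries, which in turn lay above all PBS libraries. The rise over PBS was 9.31-fold in dsHMGB1 (log2 fold change 3.22, SE 0.13, adjusted p = 9.63e-11), 9.29-fold in LPS (3.22, SE 0.13, adjusted p = 6.08e-11) and 2.09-fold in LPS/IFNγ (1.06, SE 0.13, adjusted p = 2.63e-06). Between dsHMGB1 and LPS the difference in *Ptges* was 0.00 on the log2 scale, with a 95% interval of −0.23 to 0.24 (adjusted p = 0.766), so a difference of up to about that size could have been missed. *Ptges* was 4.46-fold higher in dsHMGB1 than in LPS/IFNγ (2.16, SE 0.12, adjusted p = 9.45e-09) and 4.45-fold lower in LPS/IFNγ than in LPS (−2.15, SE 0.12, adjusted p = 2.86e-08). In frHMGB1 its log2 fold change was 0.02, with an interval of −0.24 to 0.29 (adjusted p = 0.903). The further PGE2 synthases had other orders. *Ptges3* averaged 1639 normalized counts in PBS and was called higher in dsHMGB1 (3259), LPS (3803) and LPS/IFNγ (5600). It was also called higher in LPS/IFNγ than in LPS or dsHMGB1. *Ptges2* averaged 725, 813, 991 and 591 in PBS, dsHMGB1, LPS and LPS/IFNγ. With all libraries, *Ptges2* was called higher than PBS in LPS only, and lower in LPS/IFNγ than in LPS or dsHMGB1.

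*Ptgs2* and *Ptges* thus had different orders across the stimulations. *Ptgs2* was lowest in dsHMGB1 of the 3 groups in which it rose, and *Ptges* was lowest in LPS/IFNγ. Per kilobase, 18.3 to 28.1 units of *Ptgs2* were found for 1 unit of *Ptges* in dsHMGB1, 90.1 to 118 in LPS and 251 to 274 in LPS/IFNγ, against 0.104 to 0.356 in PBS.

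**Figure D2:**
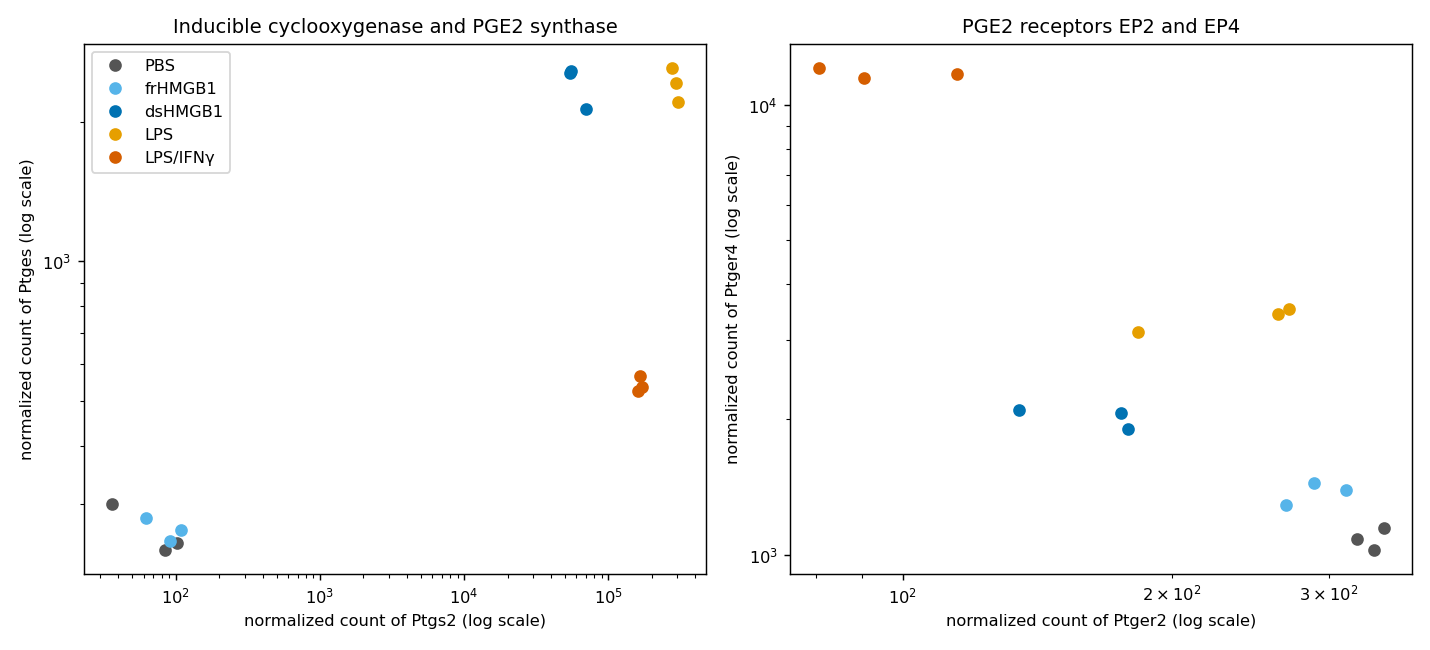
Normalized counts of *Ptges* against *Ptgs2* (left) and of *Ptger4* against *Ptger2* (right), both axes on log scales, with 1 point per library. On the left, the LPS/IFNγ libraries lay between 524.7 and 566 normalized counts of *Ptges* while dsHMGB1 and LPS lay between 2132 and 2610.4, and on the right, LPS/IFNγ combined the highest *Ptger4* with the lowest *Ptger2*.

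*Hpgds* (ENSMUSG00000029919, chromosome 6 from 65117293 to 65144908) encodes hematopoietic prostaglandin D synthase. It had 8058, 8533 and 6688 normalized counts in PBS and 8484, 8447 and 8559.6 in frHMGB1. It had 2929, 3368 and 3018 in dsHMGB1, 2497, 2396.5 and 2301 in LPS, and 2140.1, 2169 and 2199.9 in LPS/IFNγ. The 3 stimulated groups did not overlap each other or PBS, in the order dsHMGB1, LPS, LPS/IFNγ. The fall was 2.50-fold in dsHMGB1 (log2 fold change −1.32, SE 0.10, adjusted p = 3.65e-07), 3.24-fold in LPS (−1.69, SE 0.10, adjusted p = 1.5e-08) and 3.58-fold in LPS/IFNγ (−1.84, SE 0.10, adjusted p = 7.75e-09). *Hpgds* was higher in dsHMGB1 than in LPS (0.37, SE 0.10, adjusted p = 0.0117) and LPS/IFNγ (0.52, SE 0.10, adjusted p = 0.00208), and the former call was lost without dsHMGB1 replicate 2, LPS replicate 2 or LPS replicate 3. LPS and LPS/IFNγ differed by −0.14, with an interval of −0.34 to 0.06 (adjusted p = 0.54). In frHMGB1 the log2 fold change was 0.13 (SE 0.10, adjusted p = 0.573).

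*Tbxas1* (ENSMUSG00000029925, chromosome 6 from 38875404 to 39084585) encodes thromboxane A synthase. Its normalized counts were 5422, 5416 and 7361 in PBS and 6622, 6519.95 and 6629 in frHMGB1. They were 4808, 4479 and 4683 in dsHMGB1, 4842, 4909.5 and 5183 in LPS, and 4987, 4627 and 4759.7 in LPS/IFNγ. All 9 stimulated libraries were below the PBS libraries, but by little. The fall was 1.30-fold in dsHMGB1 (log2 fold change −0.38, SE 0.12, adjusted p = 0.00466), 1.22-fold in LPS (−0.28, SE 0.12, adjusted p = 0.00697) and 1.27-fold in LPS/IFNγ (−0.34, SE 0.12, adjusted p = 0.00511). All 3 calls were lost with no filter on low counts and when the 2 groups were fitted alone, and the call in LPS also without LPS replicate 2. The value in LPS (−0.28) was only a little below the median shift of all tested genes (−0.21), and further below that of protein-coding genes (−0.06). In edgeR's estimates it was −0.34, against a median of −0.27 over all tested genes. PBS replicate 3 was 1.36 times the mean of the other PBS libraries, and without it edgeR's log2 fold changes were −0.25, −0.18 and −0.25, all still called, with adjusted p of 0.000826, 0.00854 and 0.000763. Without that library, *Tbxas1* was also called higher in frHMGB1 (0.28, adjusted p = 0.00232), which it was not with all libraries (log2 fold change 0.12, adjusted p = 0.497). The part of PBS replicate 3 in these values was not tested further.

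In PBS, 13.6 to 21.9 units of *Hpgds* per kilobase were found for 1 unit of *Ptges*, and 9.51 to 10.6 units of *Tbxas1*. In dsHMGB1 both ratios were below 1 in every library, at 0.702 to 0.967 for *Hpgds* and 0.786 to 0.908 for *Tbxas1*. In LPS they were 0.580 to 0.666 and 0.802 to 0.964. In LPS/IFNγ, *Hpgds* (2.38 to 2.50) and *Tbxas1* (3.63 to 4.11) stayed above *Ptges*.

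The PGE2 receptors moved in opposite directions. *Ptger4* (ENSMUSG00000039942, chromosome 15 from 5206661 to 5244187) encodes EP4. It had 1147, 1081 and 1024 normalized counts in PBS, 1390.2, 1292 and 1443 in frHMGB1, and 1902, 2093 and 2065 in dsHMGB1. It had 3125, 3433 and 3524 in LPS and 12083, 11507 and 11701 in LPS/IFNγ. No groups overlapped, and the order was PBS, frHMGB1, dsHMGB1, LPS, LPS/IFNγ. *Ptger4* rose 1.86-fold in dsHMGB1 (log2 fold change 0.90, SE 0.08, adjusted p = 3.48e-06), 3.09-fold in LPS (1.63, SE 0.08, adjusted p = 7.15e-09) and 10.8-fold in LPS/IFNγ (3.44, SE 0.08, adjusted p = 6.15e-12). It was 5.82-fold lower in dsHMGB1 than in LPS/IFNγ (−2.54, SE 0.08, adjusted p = 8.34e-10) and 1.66-fold lower than in LPS (−0.73, SE 0.08, adjusted p = 0.000126). It was 3.50-fold higher in LPS/IFNγ than in LPS (1.81, SE 0.08, adjusted p = 2.17e-08), a comparison in which the stated LPS dose also differed. On the opposite strand, *Ttc33* covers 1.23% of the *Ptger4* exon bases with at most 1896 counts in a library, and whether the counting used strand is not given in the sources used here.

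*Ptger4* was the 1 gene of the 10 called in frHMGB1, with a rise of 1.27-fold (log2 fold change 0.34, SE 0.08, adjusted p = 0.032). The call was lost with no filter on low counts, over protein-coding genes alone, with the replicate block (adjusted p = 0.07), when PBS and frHMGB1 were fitted alone, and without PBS replicate 2, dsHMGB1 replicate 3 or any frHMGB1 replicate.

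*Ptger2* (ENSMUSG00000037759, chromosome 14 from 44988195 to 45003820) encodes EP2. The normalized counts were 346, 322 and 337 in PBS and 313, 269 and 289 in frHMGB1. They were 179, 135 and 176 in dsHMGB1, 184, 263 and 270.5 in LPS, and 80.6, 90.5 and 115 in LPS/IFNγ. The LPS/IFNγ libraries were the lowest and every stimulated library was below PBS. *Ptger2* fell 2.06-fold in dsHMGB1 (log2 fold change −1.04, SE 0.18, adjusted p = 0.000326), 1.40-fold in LPS (−0.49, SE 0.19, adjusted p = 0.0168) and 3.50-fold in LPS/IFNγ (−1.81, SE 0.19, adjusted p = 1.49e-06). The fall in LPS was not called without LPS replicate 1, with no filter on low counts or when the 2 groups were fitted alone. In frHMGB1 the value was −0.21 (SE 0.18, adjusted p = 0.654). *Ptger2* was 1.70-fold higher in dsHMGB1 than in LPS/IFNγ (0.77, SE 0.20, adjusted p = 0.00489) and 2.49-fold lower in LPS/IFNγ than in LPS (−1.32, SE 0.20, adjusted p = 0.0002). Between dsHMGB1 and LPS the log2 difference was −0.55, with an interval of −0.93 to −0.18. It missed the threshold in edgeR (adjusted p = 0.061) and passed it in DESeq2's Wald test (adjusted p = 0.0187). Within edgeR it was called with RLE normalization and when the 2 groups were fitted alone. It was also called without PBS replicate 3, LPS replicate 1, or LPS/IFNγ replicate 1 or 3.

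Per kilobase, the *Ptger4* level was 2.38 to 2.62 times that of *Ptger2* in PBS, 3.47 to 3.90 times in frHMGB1, 8.31 to 12.1 times in dsHMGB1 and 10.2 to 13.3 times in LPS. In LPS/IFNγ it was 79.4 to 117 times. The ranges of dsHMGB1 and LPS overlapped, and that of LPS/IFNγ was separate from all others.

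None of the 3 leukotriene genes was called higher than PBS in dsHMGB1, LPS or LPS/IFNγ. *Alox5* (ENSMUSG00000025701, chromosome 6 from 116410077 to 116461178), which encodes 5-lipoxygenase, the first enzyme of leukotriene synthesis, was near the limit of detection. It had 0 to 16 raw counts per library and 105 counts of 894481445 in all libraries together. The normalized counts were 6.47, 8.20 and 4.69 in PBS, 14.97, 6.13 and 6.47 in frHMGB1, 7.11, 8.07 and 1.68 in dsHMGB1, 0, 2.99 and 1.47 in LPS, and 17.0, 4.21 and 7.31 in LPS/IFNγ. The LPS libraries were below the PBS libraries, and all other groups overlapped PBS. LPS held 3 counts over its libraries and PBS 27, a depth-corrected ratio of PBS to LPS of 4.796 with an exact binomial 95% interval of 1.48 to 24.7 that covers counting error only. The fall did not pass the test (log2 fold change −2.20, SE 1.09, adjusted p = 0.0548), and was called without PBS replicate 3, dsHMGB1 replicate 3 or LPS replicate 2. LPS/IFNγ, with 28 counts, was called higher than LPS (2.73, SE 1.09, adjusted p = 0.0482; ratio 6.63, exact interval 2.05 to 34.1). This call was lost with no filter on low counts and without most single libraries, and *Alox5* was too low to be tested under a filter of 1 CPM in 3 libraries.

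*Alox5ap* (ENSMUSG00000060063, chromosome 5 from 149264767 to 149288153) encodes FLAP, the protein that presents arachidonic acid to 5-lipoxygenase. In contrast to *Alox5*, it was abundant, with 3338, 3297 and 6799.8 normalized counts in PBS and 3644.5, 3821 and 3853 in frHMGB1. There were 2551, 2239 and 2349.6 in dsHMGB1, 2433, 2446 and 2613 in LPS, and 2174, 2246 and 2263 in LPS/IFNγ. The stimulated libraries were all below PBS, of which replicate 3 was 2.05 times the mean of the others. *Alox5ap* fell 1.88-fold in dsHMGB1 (log2 fold change −0.91, SE 0.23, adjusted p = 0.00182), 1.79-fold in LPS (−0.84, SE 0.23, adjusted p = 0.00142) and 2.01-fold in LPS/IFNγ (−1.01, SE 0.23, adjusted p = 0.000509). Without PBS replicate 3 the falls were smaller, with edgeR's log2 fold changes of −0.51, −0.47 and −0.64, and still called (adjusted p = 1.8e-06, 4.32e-06 and 6.08e-08). The calls in dsHMGB1 and LPS were lost when the 2 groups were fitted alone (adjusted p = 0.0607 and 0.0796). Between dsHMGB1 and LPS the difference was −0.07, with an interval of −0.52 to 0.38 (adjusted p = 0.969). The frHMGB1 value was −0.25 with all libraries (adjusted p = 0.645) and, in edgeR's estimate, 0.18 without PBS replicate 3 (adjusted p = 0.0661).

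*Ltc4s* (ENSMUSG00000020377, chromosome 11 from 50236461 to 50238616) encodes leukotriene C4 synthase. It had 69.8, 68.8 and 313 normalized counts in PBS, 93.0, 63.4 and 72.3 in frHMGB1, and 81.8, 44.0 and 68.9 in dsHMGB1. It had 51.7, 71.7 and 73.5 in LPS and 63.6, 31.6 and 41.1 in LPS/IFNγ. Apart from PBS replicate 3, at 4.52 times the mean of the other PBS libraries, the counts of all groups lay between 31.6 and 93.0. *Ltc4s* was called lower in LPS/IFNγ (log2 fold change −1.72, SE 0.53, adjusted p = 0.0107), a call that did not hold without PBS replicate 3 (edgeR's log2 fold change −0.68, adjusted p = 0.055). In dsHMGB1 the value was −1.21 (SE 0.52, adjusted p = 0.0669) and in LPS −1.19 (SE 0.52, adjusted p = 0.0514). Without PBS replicate 3 both were −0.14 (adjusted p = 0.715 and 0.688). *Ltc4s* and *Alox5ap* have the shortest merged exon lengths of the 10 genes, 1014 and 1420 bases. *Tbxas1*, which has the longest (9094 bases), was also higher in PBS replicate 3, at 1.36 times the mean of the other PBS libraries. Why PBS replicate 3 differed was not tested. *Gm26542* covers 26.4% of the *Ltc4s* exon bases on the opposite strand and had 79 counts over all libraries.

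**Figure D3:**
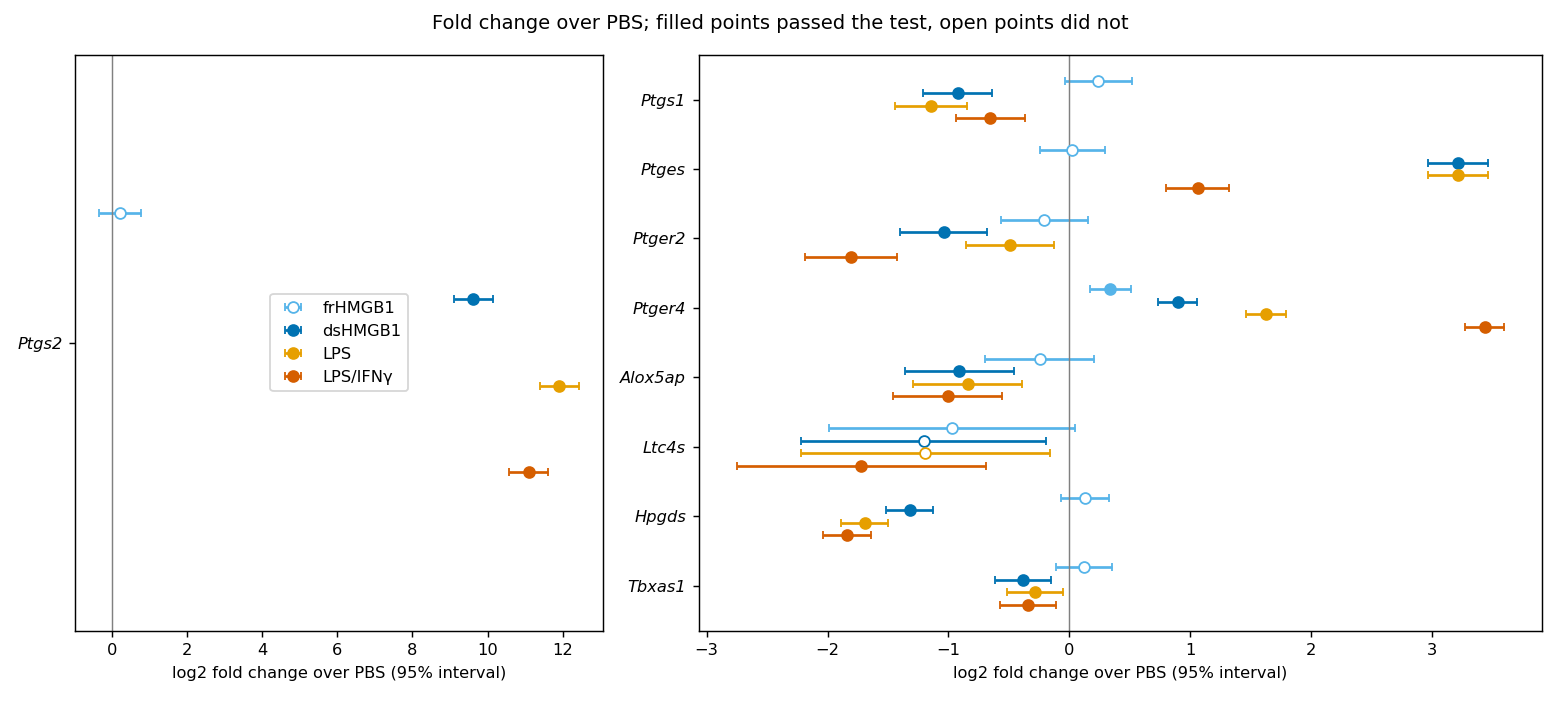
DESeq2 log2 fold changes over PBS with 95% intervals for *Ptgs2* (left, its own axis) and 8 further genes (right), with filled points for genes called by edgeR's test. *Alox5* is left out because of its low counts. *Ptges* was near 3.22 in dsHMGB1 and LPS but at 1.06 in LPS/IFNγ, *Ptger4* and *Ptger2* lay on opposite sides of 0, and most frHMGB1 points were open and near 0.

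Counted over the 10 genes, 1 was called higher (1.31% of all tested genes) and 0 lower (5.69%) in frHMGB1. In dsHMGB1, 3 were called higher (23.3% of all tested genes) and 5 lower (24.2%), with 47.4% of all tested genes called. The numbers in LPS were also 3 higher (26.7%) and 5 lower (36.2%), with 62.9% called, and those in LPS/IFNγ were 3 higher (29.0%) and 6 lower (31.2%), with 60.3% called. The median log2 fold change of the 10 genes was 0.13, −0.65, −0.67 and −0.50 in these groups, set beside the medians of all tested and of protein-coding genes given above. These 4 comparisons used the same PBS libraries. Compared with frHMGB1, whose libraries are not among them, dsHMGB1 gave 3 genes higher (27.7% of all tested genes) and 5 lower (23.1%), with 50.8% called. By the methods, the HMGB1 forms also differed in source and buffer, which cannot be told apart from their redox form. In that comparison *Ptgs2* rose 680.5-fold (log2 fold change 9.41, SE 0.27, adjusted p = 2.53e-10), *Ptges* 9.16-fold (3.20, SE 0.13, adjusted p = 1.28e-10) and *Ptger4* 1.47-fold (0.56, SE 0.08, adjusted p = 0.000341). *Hpgds* fell 2.74-fold (−1.45, SE 0.10, adjusted p = 1.39e-07), *Ptgs1* 2.24-fold (−1.16, SE 0.15, adjusted p = 2.63e-05), *Ptger2* 1.78-fold (−0.83, SE 0.19, adjusted p = 0.00141), *Alox5ap* 1.59-fold (−0.67, SE 0.23, adjusted p = 0.00915) and *Tbxas1* 1.42-fold (−0.50, SE 0.12, adjusted p = 0.000423).

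Between the stimulations, *Hpgds* was higher in dsHMGB1 than in LPS (1 of the 10 genes, 15.8% of all tested genes), and *Ptgs2* and *Ptger4* were lower (2 of the 10, 10.6% of all), with 26.4% of all tested genes called. Compared with LPS/IFNγ, *Ptges*, *Ptger2* and *Hpgds* were higher in dsHMGB1 (3 of the 10, 16.5% of all) and *Ptgs2* and *Ptger4* were lower (2 of the 10, 16.7% of all), with 33.2% called. In LPS/IFNγ compared with LPS, *Ptgs1*, *Ptger4* and *Alox5* were higher (3 of the 10, 16.3% of all) and *Ptgs2*, *Ptges* and *Ptger2* were lower (3 of the 10, 9.36% of all), with 25.7% called. Of these last 6, *Ptges*, *Ptger2* and *Ptger4* were called without each library in turn.

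Levels of different genes were compared per kilobase of merged exon. In PBS, *Alox5ap* was the first of the 10 with 3154 normalized counts per kilobase, followed by *Hpgds* (1208), *Tbxas1* (667), *Ptger4* (163), *Ltc4s* (149), *Ptgs1* (133), *Ptges* (66.6), *Ptger2* (64.5), *Ptgs2* (16.2) and *Alox5* (1.57). Over PBS replicates 1 and 2 alone the mean of *Ltc4s* was 68.3, which put it below *Ptgs1* (137) in place of above it, and that of *Alox5ap* was 2336. In dsHMGB1, *Ptgs2* (13029) came first, followed by *Alox5ap* (1676), *Ptges* (615) and *Tbxas1* (512). *Ptgs2* was also first in LPS (63512) and LPS/IFNγ (36054), and *Ptger4* came second in LPS/IFNγ (1769). Of the summed level of the 10 genes, *Ptgs2* accounted for 0.288% in PBS and 0.362% in frHMGB1, and for 77.6% with dsHMGB1, 94.1% with LPS and 88.9% with LPS/IFNγ. The share of *Alox5ap* was 56.1% in PBS and 9.98% in dsHMGB1. Shares sum to 100%, so a rise in 1 gene lowers the shares of the others.

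**Figure D4:**
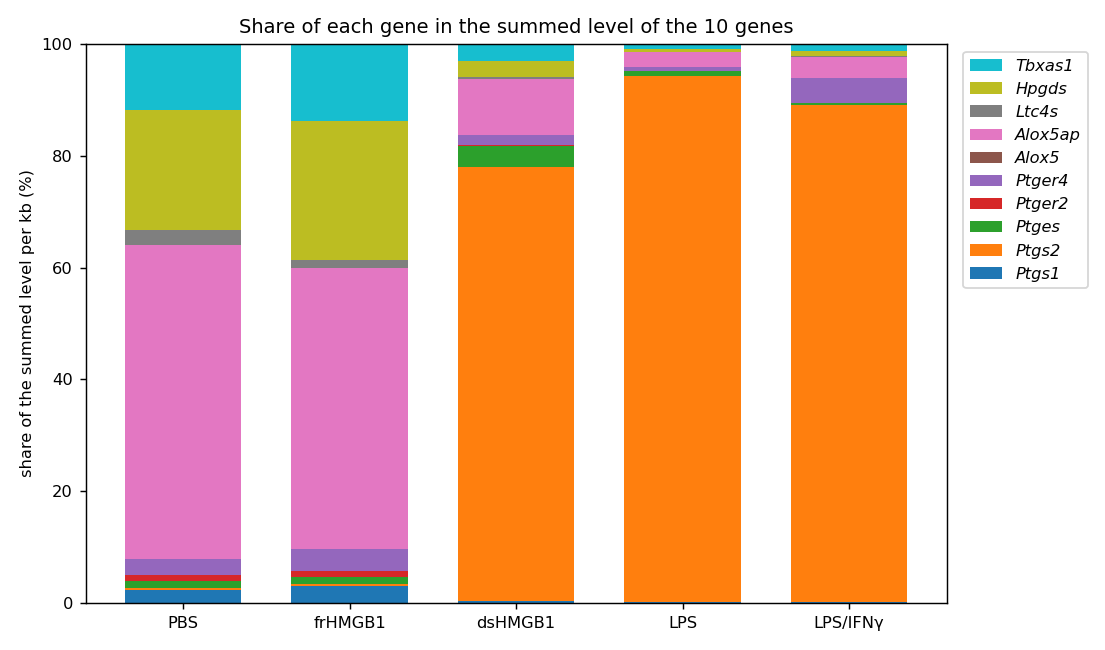
Share of each of the 10 genes in their summed level (normalized counts per kilobase of exon, group means of 3 libraries), in percent, by stimulation. *Alox5ap*, *Hpgds* and *Tbxas1* made up most of the level in PBS and frHMGB1, and *Ptgs2* made up 77.6% to 94.1% in dsHMGB1, LPS and LPS/IFNγ.

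Beyond the 10 genes, 67 genes in 6 lists covered arachidonic acid release, other synthases and receptors, other leukotriene genes, other lipoxygenase and resolution genes, and transport and breakdown of eicosanoids, of which 52 were tested. Over all lists, 2 were higher (1.31% of all tested genes) and 1 lower (5.69%) in frHMGB1, 15 (23.3%) and 19 (24.2%) in dsHMGB1, 15 (26.7%) and 20 (36.2%) in LPS, and 13 (29.0%) and 23 (31.2%) in LPS/IFNγ, each compared with PBS. In all, 65.4% of the 52 genes were called in dsHMGB1 where 47.4% of all tested genes were, 67.3% in LPS where 62.9% were, and 69.2% in LPS/IFNγ where 60.3% were. Without PBS replicate 3, an alternative chosen after seeing the data, the lists gave 61.5% against 58.9% of all genes in dsHMGB1, 71.2% against 71.2% in LPS and 71.2% against 67.7% in LPS/IFNγ, so these counts were near the background. In frHMGB1, 9 list genes were then higher (8.41% of all tested genes) and 1 lower (9.09%), with *Lpcat2*, *Ptges2*, *Akr1b3*, *Fam213b*, *Mgst3*, *Cotl1* and *Cyp4f16* added.

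By list, the counts are read against the same shares of all tested genes. Of the 16 tested genes of phospholipid release and remodelling, 3 rose and 7 fell in dsHMGB1, 4 and 7 in LPS, and 4 and 9 in LPS/IFNγ, with median log2 fold changes of −0.39, −0.63 and −0.39. Without PBS replicate 3, *Pla2g5*, a gene of few counts, was also called lower in dsHMGB1, LPS and LPS/IFNγ (edgeR's log2 fold change −1.67, −1.66 and −2.14). *Pla2g7* was then called higher in dsHMGB1 and LPS/IFNγ (0.38 and 0.39), and the fall of *Pla2g12a* in dsHMGB1 was lost. Of the 5 other synthases, 1 rose and 2 fell in dsHMGB1, 2 and 2 in LPS, and 1 and 3 in LPS/IFNγ. The fall of *Fam213b* in dsHMGB1 was not called without PBS replicate 3 (edgeR's log2 fold change −0.21, adjusted p = 0.0717), while *Ptges2* in dsHMGB1 and *Akr1b3* in LPS were called higher. Of the 3 other prostanoid receptors, 1 rose in dsHMGB1, 1 rose and 1 fell in LPS, and 0 were called in LPS/IFNγ. Of the 10 other leukotriene genes, 3 rose and 4 fell in dsHMGB1, 3 and 3 in LPS, and 2 and 4 in LPS/IFNγ. When that library was left out, 2 of the 4 falls in dsHMGB1 were lost, those of *Mgst2* (−0.20, adjusted p = 0.424) and *Mgst3* (−0.26, adjusted p = 0.0657), as was that of *Mgst2* in LPS/IFNγ (−0.27, adjusted p = 0.254). Of the 8 lipoxygenase and resolution genes, 4 rose and 2 fell in dsHMGB1, 3 and 1 in LPS, and 4 and 1 in LPS/IFNγ. Of these, the fall of *Cyp2j6* in dsHMGB1 was lost without that library (−0.15, adjusted p = 0.142), and *Ephx1* was added in LPS/IFNγ. Of the 10 genes of transport and breakdown, 3 rose and 4 fell in dsHMGB1, and 2 rose and 6 fell in each of LPS and LPS/IFNγ. The falls of *Cyp4f18* in LPS (−0.14, adjusted p = 0.251) and *Ptgr1* in LPS/IFNγ (−0.14, adjusted p = 0.16) did not hold without it.

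Arachidonic acid is released by phospholipases. *Pla2g4a*, the cytosolic phospholipase A2 that prefers arachidonic acid, had 345, 402 and 127 normalized counts in PBS, 2112, 2289 and 2378 in dsHMGB1, 3285, 3248 and 3317 in LPS, and 1667, 1589.7 and 1697 in LPS/IFNγ. It rose in all 3 (log2 fold change 2.95, 3.49 and 2.50, adjusted p = 4.2e-06, 6.66e-07 and 1.11e-05). Without PBS replicate 3, at 0.339 times the mean of the other PBS libraries, edgeR's log2 fold changes of *Pla2g4a* were 2.56, 3.08 and 2.07, all called. The calcium-independent phospholipase *Pla2g6*, by contrast, fell from 365 to 447 in PBS to 147 to 213 in dsHMGB1, 77.7 to 96.9 in LPS and 76.8 to 108 in LPS/IFNγ (−1.20, −2.21 and −2.16). The lysosomal phospholipase *Pla2g15* fell from a mean of 18784 in PBS to 8367 in dsHMGB1 and 4081 in LPS (−1.17 and −2.20), and was at 15926 in LPS/IFNγ (−0.24, adjusted p = 0.0328). It was higher in LPS/IFNγ than in LPS (1.964, SE 0.12, adjusted p = 1.78e-08). *Dagla*, a diacylglycerol lipase, had log2 fold changes of −1.39, −2.71 and −2.65 in dsHMGB1, LPS and LPS/IFNγ, all called. Without PBS replicate 3 its edgeR values were −1.77, −3.12 and −3.07, all called. *Pla2g12a*, a secreted phospholipase, was called lower in all 3 (−1.10, −1.49 and −2.02), but PBS replicate 3 was 3.60 times the mean of the other PBS libraries. Without that library its edgeR log2 fold change in dsHMGB1 was −0.24 (adjusted p = 0.129), and those in LPS and LPS/IFNγ were −0.65 and −1.19, both called.

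Prostaglandins are inactivated by oxidation. *Hpgd*, the 15-hydroxyprostaglandin dehydrogenase that inactivates PGE2, had 1519, 1522 and 1462 normalized counts in PBS, 374, 359 and 363 in dsHMGB1, 419, 400.4 and 338 in LPS, and 441, 394.5 and 415 in LPS/IFNγ. It fell in all 3 (−2.04, −1.959 and −1.85 on the log2 scale, adjusted p = 3.85e-09, 2.65e-09 and 4.96e-09), and dsHMGB1 and LPS differed by −0.08 (adjusted p = 0.901). *Abcc1*, an exporter of leukotriene C4, had 3719, 3942 and 1282 normalized counts in PBS and rose to 13167, 17398 and 17323 in dsHMGB1, 9345, 10545 and 10331 in LPS, and 6216, 6133 and 6077 in LPS/IFNγ (2.42, 1.76 and 1.04). Without PBS replicate 3 its edgeR log2 fold changes were 2.03, 1.34 and 0.61, all called. *Cbr1*, a carbonyl reductase that acts on prostaglandins, fell in all 3 (−1.55, −1.70 and −2.19, and −1.05, −1.22 and −1.72 in edgeR without PBS replicate 3).

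Of the receptors linked to mediators of resolution, *Fpr2* and *Gpr18* rose with all 3 stimulations. *Fpr2*, the formyl peptide receptor to which lipoxin A4 has been assigned, had 3.88, 0 and 7.04 normalized counts in PBS, 3225, 2468 and 2215 in dsHMGB1, 3951, 3562 and 3426 in LPS, and 1894, 1582 and 1877 in LPS/IFNγ (log2 fold change 9.75, 10.21 and 9.18). These folds rest on few PBS counts, and without PBS replicate 3 edgeR's values were 10.31, 10.75 and 9.71 in place of 9.67, 10.08 and 9.09. In frHMGB1 it had 23.5, 18.4 and 6.47, which overlapped PBS, and was called higher (2.40, SE 0.51, adjusted p = 0.0337). *Gpr18*, a G protein-coupled receptor, rose from a mean of 32.0 in PBS to 567 with dsHMGB1, 892 with LPS and 4208 with LPS/IFNγ (4.11, 4.76 and 6.999), and was higher in LPS/IFNγ than in LPS (2.24, SE 0.15, adjusted p = 2.52e-06). *Cmklr1*, the chemerin receptor, had a mean of 261 in PBS, 1104.5 in dsHMGB1, 460.02 in LPS and, for LPS/IFNγ, 610.5. Its rise was called in dsHMGB1 (2.07, adjusted p = 0.000192) and LPS/IFNγ (1.22, adjusted p = 0.00681) and not in LPS (0.81, adjusted p = 0.0667), and it was higher in dsHMGB1 than in LPS (1.26, SE 0.32, adjusted p = 0.00849). PBS replicate 3 was 0.324 times the mean of the other PBS libraries, and without it the rise of *Cmklr1* in LPS was called (edgeR's log2 fold change 0.39, adjusted p = 0.0234).

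**Figure D5:**
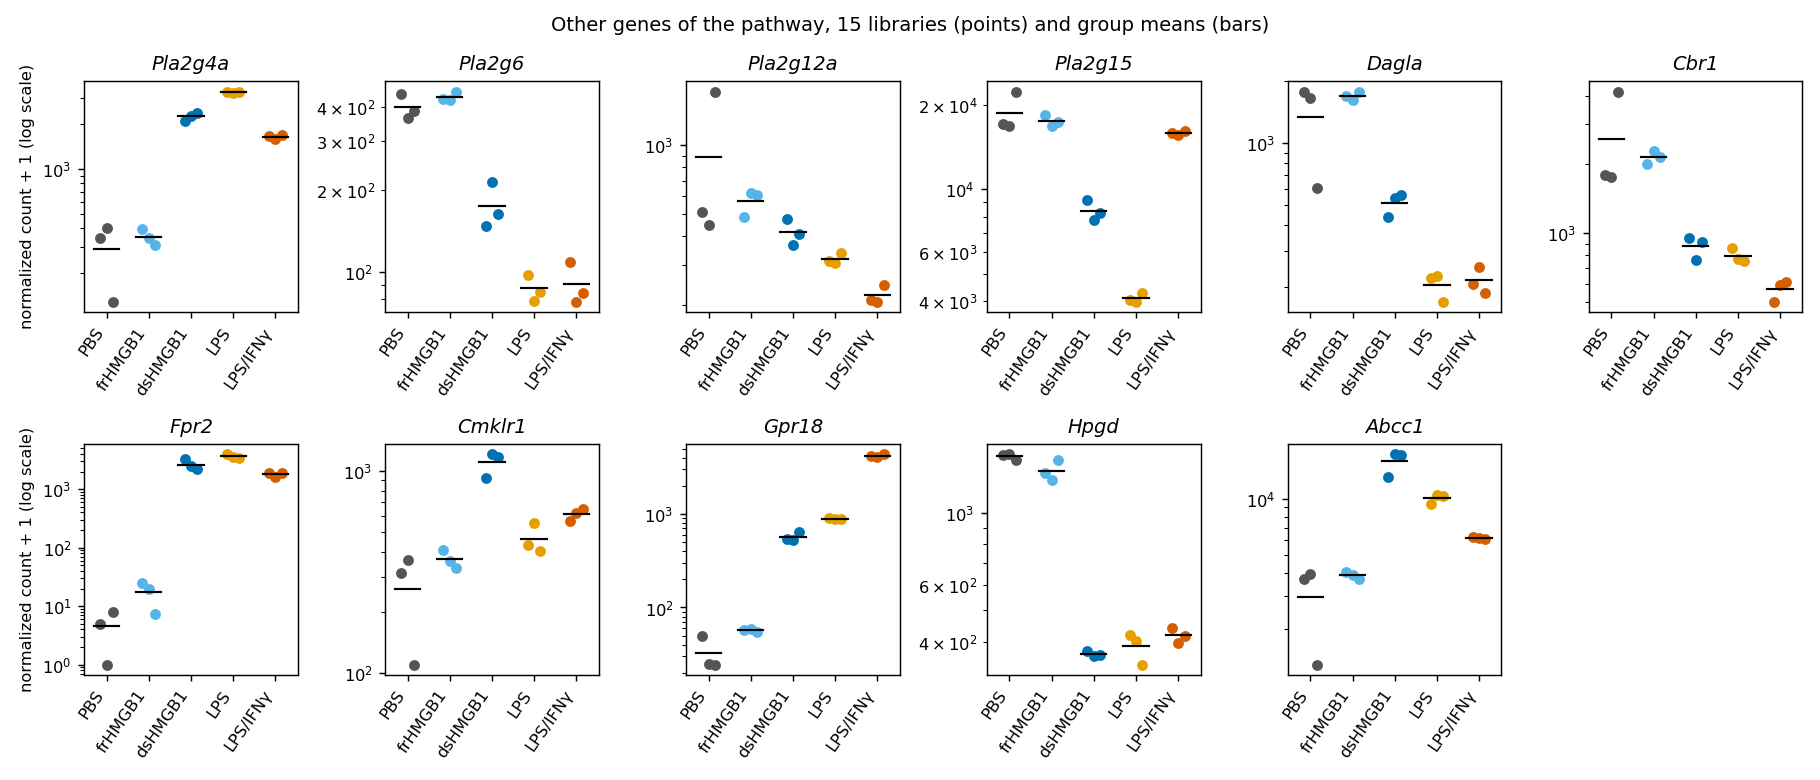
Normalized counts plus 1 (log scale) of 11 further genes of the pathway in each of the 15 libraries (points), by stimulation, with group means as bars. *Pla2g4a*, *Fpr2*, *Gpr18* and *Abcc1* were higher than PBS in dsHMGB1, LPS and LPS/IFNγ, *Hpgd* was lower in all 3, and *Pla2g15* was lower in dsHMGB1 and LPS than in LPS/IFNγ.

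For each of the 10 genes, the protein-coding genes with the most similar pattern were found by Pearson's r of log2(normalized count + 1) over the 15 libraries. These points share 5 stimulations of 1 pool of cells, so r describes a likeness of pattern only. For *Ptgs2* they were *Parp12*, *Tent4a* and *Ifi209* (r = 0.9987 to 0.9995), for *Ptges* *Ttc39c*, *Stard7* and *Shmt2* (0.989 to 0.995), and for *Ptgs1* *Vps18*, *Ckap4* and *Tmem71* (0.964 to 0.966). *Ptger4* was nearest to *Ece1*, *Furin* and *Homer1* (0.9895 to 0.994), and *Ptger2* to *Wbp1l*, *Aifm2* and *Lpxn* (0.939 to 0.966). *Hpgds* was nearest to *Slc26a11*, *Il6ra* and *Steap3* (0.995 to 0.997) and *Tbxas1* to *Usf2*, *Cotl1* and *Gpi1* (0.963 to 0.966). *Alox5ap* was nearest to *Fuca1*, *Ckb* and *Matk* (0.994 to 0.995). The values of *Ltc4s* (*1600002K03Rik*, *Ndufa12* and *Mrps16*, 0.951 to 0.959) follow PBS replicate 3, and those of *Alox5* (*Rai2*, *Hs2st1* and *4930590J08Rik*, 0.785 to 0.853) rest on few counts.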

How the data were processed

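RNA-Seq was performed on 15 samples, 3 per stimulation. The deposited table holds raw read counts per gene, which the authors obtained from stranded mRNA libraries sequenced in paired-end mode and aligned to GRCm38 with STAR. Which program and annotation produced the counts is not given in the sources used here. The study's own comparisons used DESeq2 without p-values, as its replicates were technical. The table has 0 columns without a sample. BMDMs were cultured for 8 to 9 days before seeding per the methods and 10 days per the labels. The in-house frHMGB1 was kept in buffers with DTT per the methods and without DTT per the labels. By the methods, dsHMGB1 was a gift from another laboratory, made in buffers without DTT.

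Genes were filtered with filterByExpr (minimum count 10, total 15) and tested with edgeR 4.0.16 (glmQLFit and glmQLFTest, quasi-likelihood, TMM, Benjamini-Hochberg adjustment over 16919 genes, adjusted p under 0.05, all 15 libraries in 1 fit without covariates, 10 residual degrees of freedom). Normalized counts, unshrunken log2 fold changes, their SE and 95% intervals came from DESeq2 1.42.0 in R 4.3.3, except where edgeR's estimate is named. The script was tested on simulated data. GENCODE M21 held 51661 of the identifiers and gave gene positions and merged exon lengths. Promoters came from RefSeq (GRCm38.p6), where 9 of the 10 genes were matched. Intervals of count ratios cover counting error only, since reads without molecular identifiers are not independent molecules.

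The 10 genes and the lists were chosen with earlier results of these data known. Of the 67 list genes, those named were called in dsHMGB1, LPS or LPS/IFNγ over PBS, averaged 100 or more normalized counts, and had a log2 fold change of at least 2 in either direction, and the 3 most similar protein-coding genes were named for each of the 10. Each library was left out in turn, and the tests were repeated with DESeq2's Wald test, with RLE, with 1 CPM in 3 libraries or no filter, on protein-coding genes only, on the 2 groups alone and with a replicate block. Counts over the lists were also taken without PBS replicate 3, an alternative chosen after seeing the data, and list genes whose calls changed there were named after their values were seen. *Ptges3* was named outside these rules, as a further PGE2 synthase beside *Ptges*.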

Additional observations from a re-analysis of the deposited data

How the results depend on the processing

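Across the alternatives, 1632 of 1745 values of the 10 genes in the 8 comparisons kept their sign and their side of the threshold, 24 newly passed it and 55 no longer did. A further 34 values changed sign, of which 0 were called under either setting. Among them, without PBS replicate 3, were the frHMGB1 values of *Ptgs2* (0.21 to −0.09), *Alox5ap* (−0.25 to 0.18) and *Ltc4s* (−0.97 to 0.13). In frHMGB1 over PBS, where 1 of the 10 genes was called with all libraries, the number was 0 with no filter on low counts, over protein-coding genes only, with the 2 groups fitted alone and with the replicate block, and 0 to 2 when each library was left out. It was 2 without PBS replicate 3, where *Tbxas1* joined *Ptger4*. Over all tested genes, 1185 were called in frHMGB1, against 70 over protein-coding genes only, 189 with the 2 groups fitted alone and 3035 without PBS replicate 3. In LPS over PBS, 8 of the 10 were called (62.9% of all tested genes), 5 with the 2 groups fitted alone (49.2% of all, with *Ptger2*, *Alox5ap* and *Tbxas1* lost) and 7 to 9 with each library left out. In LPS/IFNγ over LPS, 6 were called (25.7% of all) and 3 to 8 with each library left out. It was 3 without LPS replicate 1 or 3 or LPS/IFNγ replicate 1 or 3, and 8 without PBS replicate 3, where *Alox5ap* and *Hpgds* were added and 49.4% of all tested genes were called. With each library left out, the range for dsHMGB1 over PBS was 8 to 9, with 38.8% to 58.9% of all tested genes called. It was 8 to 9 for LPS/IFNγ over PBS (53.1% to 67.7%) and 2 to 4 for dsHMGB1 over LPS (19.6% to 48.8%). For dsHMGB1 over LPS/IFNγ it was 5 to 5 (26.3% to 53.3%), and over frHMGB1 8 to 8 (43.0% to 68.7%). In the same fits, 4.81% to 17.5% of all tested genes were called in frHMGB1 over PBS. The shares were 54.9% to 71.2% in LPS over PBS and 19.1% to 49.4% in LPS/IFNγ over LPS. For these changes, the cause was not tested.

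Samples with the same replicate number did not deviate together: of 30 pairs, 1 had a correlation of deviations over 0.1 (range −0.34 to 0.336), and 9 correlated best with their own number, so the numbers do not pair the samples. With the replicate block, the call of *Ptger4* in frHMGB1 (adjusted p = 0.07) and that of *Alox5* in LPS/IFNγ over LPS (adjusted p = 0.0568) were lost, and no other call among the 10 genes changed. The values of *Alox5* rested on few counts, 105 in all libraries.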
